A study of Mus musculus with 15 samples.

Results

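Kaempferol is a plant flavonol, and the comparison described here asks what liver transcripts looked like in mice gavaged with it on a high-fat diet. It sets the 3 kaempferol libraries (title numbers 3, 5 and 8) against the 3 model libraries (1, 2 and 5), which together are 6 of the 15 libraries of the series. They were chosen by their labelled treatment, not by any measured value. Libraries are always given below in that order of numbers.

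All mice were labelled wild type. The model group ate for 6 weeks a feed enriched with cholesterol (1%), sodium cholate (0.2%) and equal shares (10%) of lard and egg yolk powder. The kaempferol group is labelled as 6 weeks on a high-fat diet with 100 mg/kg/day by gavage. The composition of its diet is not stated and was taken to be that of the model. Other libraries came from controls on standard feed and from mice gavaged on a high-fat diet with quercetin (200 mg/kg/day) or myricetin (75 mg/kg/day), with 3 libraries in each group. Age, sex, strain, the hour of collection, and any gavage of control and model mice are not given in the labels. Nor do the labels say that libraries came from separate mice, so p-values measure the spread between libraries, which may be technical.

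Kaempferol, quercetin and myricetin share a ring skeleton and differ in how many hydroxyl groups the B ring carries, fewest in kaempferol and most in myricetin. In the liver, sterol regulatory element binding proteins drive the genes of cholesterol and fatty acid synthesis, and dietary cholesterol is known to lower the sterol branch. The circadian clock is a feedback loop in which BMAL1 (Arntl) and CLOCK activate the Per, Cry and Rev-erb (Nr1d1, Nr1d2) genes, whose products repress the loop in turn. Kupffer cells are the resident macrophages of the liver, and hepatocytes make acute phase proteins during inflammation.

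Totals were 16253513 to 17419026 expected counts over the 6 libraries, with 14622 to 14929 genes detected. Levels are given as CPM, the usual scaling of counts to the library total, here after TMM normalization and not per transcript length. Albumin took 4.28% to 6.66% of the counts. The 22 hepatocyte markers summed to 105400 to 130800 CPM in the model and 97060 to 125800 CPM with kaempferol. The 11 exocrine pancreas markers in the table summed to at most 14.13 CPM. Kaempferol library 8 stood apart in macrophage and B cell genes, and its values are given beside those results. In bulk tissue, more cells of a type and more RNA per cell cannot be told apart.

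Few genes passed the main test. Of 12658 genes tested with edgeR's quasi-likelihood test, 2 rose with kaempferol (0.0158% of genes tested) and 3 fell (0.0237%) at a Benjamini-Hochberg adjusted p under 0.05. At an unadjusted p under 0.05 there were 1475 genes, or 11.7% of those tested, 900 of them higher (7.11%) and 575 lower (4.54%). DESeq2 on the same counts called 189 genes, 108 higher (0.84%) and 81 lower (0.63%), and these held all 5 of the edgeR genes. The authors' deposited table lists 278 genes with a q value under 0.05 for this comparison, among them the same 5 and 145 of the 189. In 1290 genes (10.2%) each kaempferol library was above each model library, and in 1108 (8.75%) each was below. The median log2 fold change over all genes was 0.01, with a median standard error of 0.16. The edgeR count was 39 without kaempferol library 5, 18 without kaempferol library 8, 1 without model library 1, and 0 without model library 2 or 5 or kaempferol library 3.

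Srebf1, which encodes the transcription factor that drives fatty acid synthesis genes, fell. Its gene (ID 20787) lies at chr11:60199084-60224186 on the minus strand of GRCm38.p6, as the deposited table gives it. Model libraries had 401, 336 and 402 CPM, and kaempferol libraries had 196, 152 and 180 CPM. Every kaempferol library was well below every model library. The log2 fold change was -1.11 ± 0.17 (SE, n = 3 per group), with an adjusted p of 0.0224 by edgeR. In the standard-feed control it stood at 128, 155 and 211 CPM, a range that overlaps that of kaempferol, and the log2 difference of 0.10 between those groups did not pass (adjusted p = 0.742 by edgeR). With quercetin Srebf1 was at 633, 501 and 499 CPM, and with myricetin at 371, 288 and 311 CPM. The 3 RefSeq promoter windows of Srebf1 (250 bases before each start) held no match to TCACNCCAC, a form of the sterol regulatory element, which 1.05% of all windows hold. All 3 windows lie inside the span of the gene given above. For the window at chr11:60220628-60220877, the bases after the start were not found unbroken in its reference transcripts.

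Nat8f6, a member of the N-acetyltransferase 8 family, fell too. It is named although its level is under 5 CPM, a choice made after its values were seen. This gene (ID 100504710, chr6:85808044-85809877, minus strand) had 3.06, 2.79 and 3.95 CPM in the model. With kaempferol it had 0.885, 0.7 and 0.511 CPM. The ranges lie far apart, with a log2 fold change of -2.21 ± 0.33 (adjusted p = 0.0224 by edgeR). Values with quercetin (0.445, 0.832 and 0.431 CPM) and myricetin (0.801, 0.905 and 0.402 CPM) overlapped those with kaempferol. The family has near-identical copies, so its count may share reads with them and is uncertain.

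Saa3, a serum amyloid A gene of the acute phase that macrophages also express, rose. This gene (ID 20210) lies at chr7:46711998-46719615 on the minus strand. It stood at 8.76, 5.58 and 8.69 CPM in the model and at 28.9, 27.2 and 19.2 CPM with kaempferol. Its log2 fold change was 1.71 ± 0.26 (adjusted p = 0.0288 by edgeR). No library of the other 4 groups reached the lowest kaempferol value, the highest being 17.4 CPM in a quercetin library. Saa3 was also above the control (log2 difference 1.41, adjusted p = 0.0037 by edgeR). Its log2 differences from quercetin (0.91) and myricetin (1.76) did not pass (adjusted p = 0.0521 and 0.0713 by edgeR). Leaving out model library 1, 2 or 5 or kaempferol library 3 ended the call of all 5 genes, with adjusted p-values of 0.0641 to 0.208 by edgeR and the same signs.

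**Figure D1:**
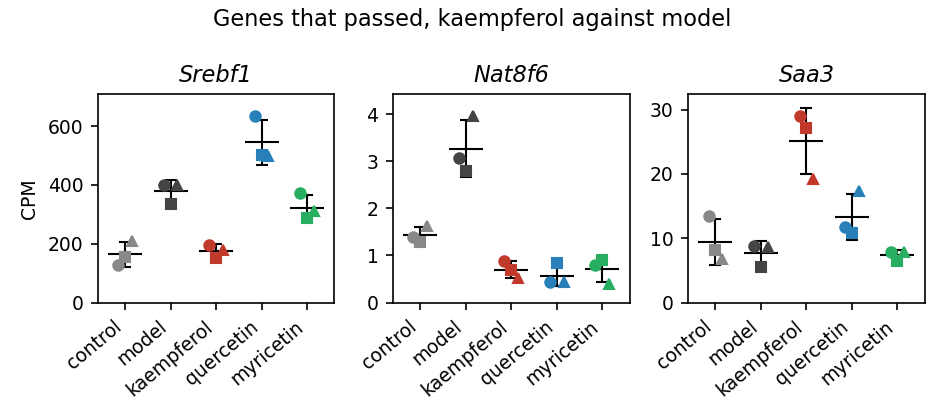
CPM (y axes, from 0) of 3 genes that passed, in each library of the 5 groups (x axis). Circle, square and triangle are the libraries of a group in ascending number, and the line with its bar is mean ± SD (n = 3). Kaempferol values of Srebf1 overlap those of the control, those of Srebf1 and Nat8f6 lie below the model, and those of Saa3 lie above it.

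Core clock genes differed in both directions. Of the 15 tested, 1 fell, 0 rose and 14 did not pass. In 6 each kaempferol library was below each model library (40%, against 8.75% of all genes) and in 3 each was above (20%, against 10.2%). DESeq2 called 5 lower and 1 higher (against 0.63% and 0.84% of all genes). The median log2 fold change of the list was -0.26, with -0.08 without model library 1 and -0.15 without kaempferol library 3. Members described here other than Cry2, Arntl and Npas2 were chosen after their values were seen.

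Cry2, a repressor of the loop, had 37.4, 35.5 and 35 CPM in the model and 18.5, 19.5 and 24.9 CPM with kaempferol. The groups were apart, but the log2 fold change of -0.78 ± 0.14 missed the threshold (adjusted p = 0.0577 by edgeR, 0.000191 by DESeq2). Cry1, its paralog, had 52, 44.5 and 48 CPM against 22.9, 25.6 and 29.8 CPM with kaempferol (log2 fold change -0.88 ± 0.21, adjusted p = 0.123 by edgeR). All 3 kaempferol values again lay under the lowest model value. Cry1 and Cry2 passed by edgeR when only the 6 libraries were fitted.

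Per2, a period gene, had 31.7, 33.5 and 18.5 CPM in the model and 4.43, 3.31 and 7.49 CPM with kaempferol, without overlap (log2 fold change -2.45 ± 0.50, adjusted p = 0.0969 by edgeR, 0.00013 by DESeq2). Per3 was at 6.98, 4.59 and 7.38 CPM against 1.77, 1.91 and 1.65 CPM with kaempferol (log2 fold change -1.83 ± 0.38, adjusted p = 0.0832 by edgeR). When only the 6 libraries were fitted, Per3 passed by edgeR and Per2 did not. Per1, the other period gene, overlapped between the groups, with 14.4, 5.7 and 5.34 CPM in the model and 2.71, 0.955 and 10 CPM with kaempferol. Its highest kaempferol value was that of library 8.

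Nr1d1, which encodes the repressor REV-ERBα, stood on the other side. It had 4.16, 6.63 and 7.05 CPM in the model and 17.9, 14.1 and 24.1 CPM with kaempferol, without overlap (log2 fold change 1.65 ± 0.39, adjusted p = 0.133 by edgeR, 0.0199 by DESeq2). Arntl, the activator, had 30.9, 27.2 and 27.8 CPM in the model and 28.8, 28.6 and 23.6 CPM with kaempferol. These values overlap, and the log2 difference of -0.08 has a 95% interval of -0.58 to 0.41. Npas2, a paralog of Clock, was at 7.47, 6.57 and 8.43 CPM in the model and 9.41, 11.9 and 9.65 CPM with kaempferol, apart but far from the threshold (adjusted p = 0.85 by edgeR). Its standard error was 0.60 in the main fit, which takes the spread over all 15 libraries. With only the 6 libraries it was 0.15 (adjusted p = 0.237 by edgeR).

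**Figure D2:**
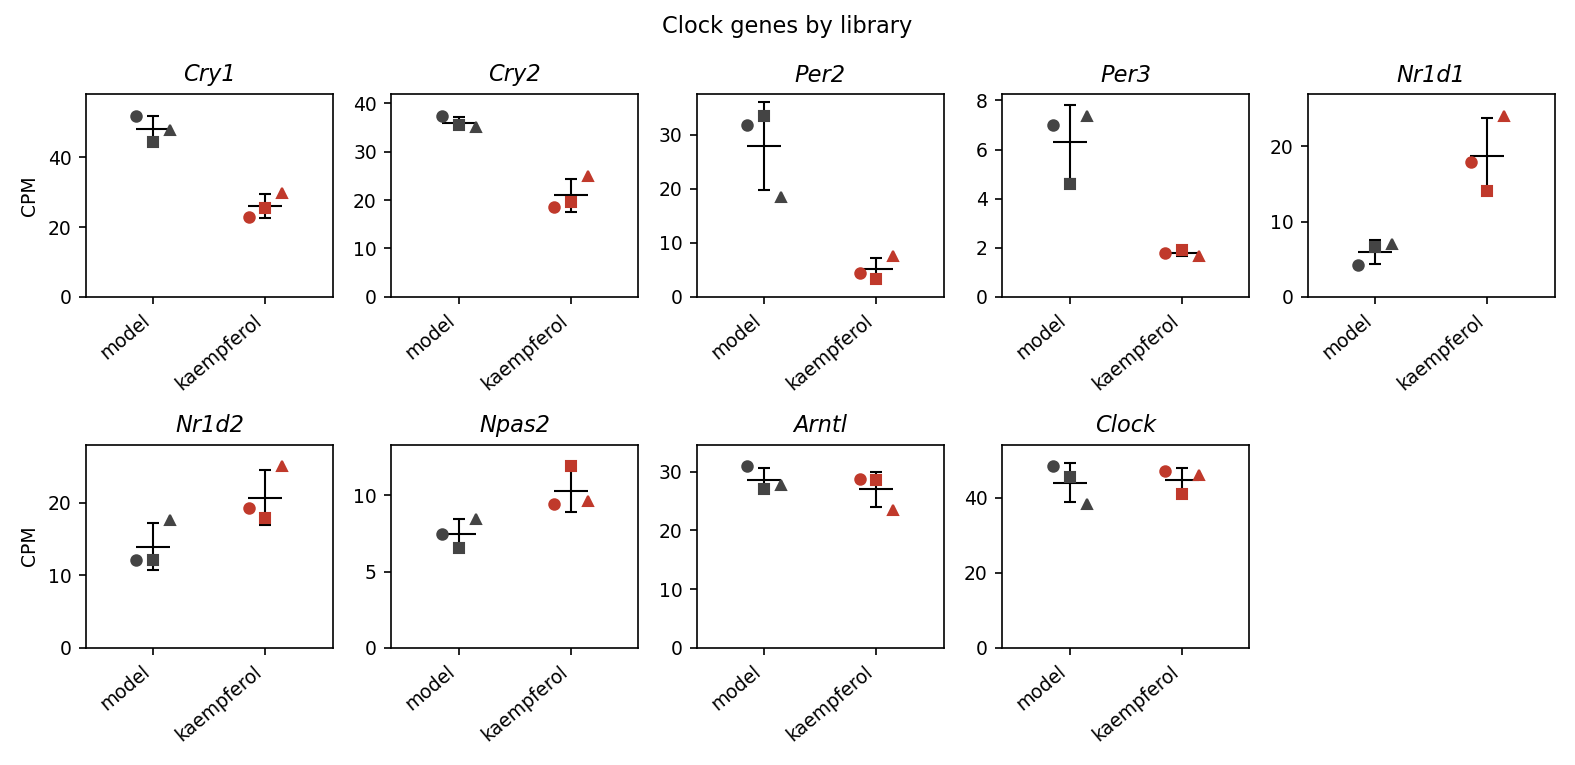
CPM (y axes, from 0) of 9 core clock genes in the model and kaempferol libraries (x axis), with symbols as above and mean ± SD (n = 3). Cry1, Cry2, Per2 and Per3 lie lower with kaempferol, Nr1d1, Nr1d2 and Npas2 lie higher, and Arntl and Clock overlap.

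Clock output genes are driven by the loop. Of 19 tested, 0 passed by edgeR or DESeq2, with a smallest adjusted p of 0.223 by edgeR. At an unadjusted p under 0.05, 2 were higher and 7 lower (against 7.11% and 4.54% of all genes). In 11 (57.9%, against 8.75% of all genes) each kaempferol library was below each model library, and the list median was -0.42. The list summed to 755.6, 670.9 and 695.9 CPM in the model and 702, 580 and 660.3 CPM with kaempferol, which overlap. Tef, a transcription factor of the PAR bZip family, had 59.6, 50.5 and 62.5 CPM in the model and 28.9, 34.8 and 41.2 CPM with kaempferol (adjusted p = 0.247 by edgeR). Dbp, of the same family, was low in both, at 2.2, 2.79 and 3.03 CPM against 1.49, 1.27 and 1.99 CPM. Its kaempferol values lay just below the model values (adjusted p = 0.698 by edgeR). The hour of collection is not given, and its part in these differences was not tested.

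Promoter windows are printed for Cry1, Per3 and Saa3, which carry known elements of the clock and of the acute phase. RefSeq windows (GRCm38.p6) were matched by symbol for 12 of the 15 core clock genes, 14 of the 19 clock output genes and 25 of the 29 acute phase genes. Shown are the 250 bases before the start of Cry1 (chr10:85185055-85185304, minus strand), with its E-box CACGTG in capitals, the element bound by BMAL1 and CLOCK. Per3 (chr4:151044666-151044915, minus strand) has 2 D-boxes (TTANGTAA, the element of Dbp and Tef) in capitals. Saa3 (chr7:46715677-46715926, minus strand) has a C/EBP element (TTGCNNAA, matched on the opposite strand) in capitals. Its window lies inside the span of the gene in the deposited table, and the bases after the RefSeq start were not found unbroken in its reference transcripts. It also holds 1 match to TCACNCCAC on the opposite strand, left in lower case. Motifs were searched on both strands, a palindrome was counted once, and the capitals do not overlap another of the motifs searched.
Cry1: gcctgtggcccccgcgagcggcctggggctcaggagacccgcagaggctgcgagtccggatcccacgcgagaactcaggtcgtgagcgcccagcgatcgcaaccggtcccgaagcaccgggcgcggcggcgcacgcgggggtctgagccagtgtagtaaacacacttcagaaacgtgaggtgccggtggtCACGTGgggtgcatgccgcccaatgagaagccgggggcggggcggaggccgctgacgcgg
Per3: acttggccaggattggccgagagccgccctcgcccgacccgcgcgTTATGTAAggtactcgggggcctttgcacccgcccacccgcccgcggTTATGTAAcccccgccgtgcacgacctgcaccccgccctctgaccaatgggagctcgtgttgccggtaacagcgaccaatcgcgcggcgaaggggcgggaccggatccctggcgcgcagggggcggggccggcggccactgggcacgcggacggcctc
Saa3: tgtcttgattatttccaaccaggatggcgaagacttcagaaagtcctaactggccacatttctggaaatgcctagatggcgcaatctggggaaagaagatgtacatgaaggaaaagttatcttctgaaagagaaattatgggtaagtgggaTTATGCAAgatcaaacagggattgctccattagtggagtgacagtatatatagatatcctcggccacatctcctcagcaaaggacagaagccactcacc

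Among all 32851 windows, 6.02% held CACGTG, 2.06% held TTANGTAA and 9.56% held TTGCNNAA. Of the 19 windows of core clock genes, 3 held an E-box (15.8%) and 1 held D-boxes (5.26%). Clock output genes had an E-box in 5 of 19 windows (26.3%), those of Bhlhe41, Lonrf3, Tef and Tspan4. Acute phase genes had a C/EBP element in 14 of 26 windows (53.8%), Saa1, Saa2, Fga and Lcn2 among them. These are matches of letters and do not show binding.

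The sterol branch, from cholesterol synthesis to its uptake, lay lower with kaempferol, though none of its genes passed by edgeR. All 25 were tested and 0 passed by edgeR. At an unadjusted p under 0.05, 14 were lower and 0 higher (against 4.54% and 7.11% of all genes). DESeq2 called 5 lower and 0 higher (against 0.63% and 0.84% of all genes). The log2 fold change was below 0 in 25 of 25, with a median of -0.61, and -0.39 without model library 2. In 14 (56%, against 8.75% of all genes) each kaempferol library was below each model library. The list summed to 1904, 2224 and 1629 CPM in the model and 1345, 1237 and 1332 CPM with kaempferol, without overlap. In the control the sum was 2435 to 3444 CPM. At an adjusted p under 0.05 by edgeR, 21 of the 25 were lower with kaempferol than in the control and 0 higher. Of all genes, 5.55% were lower and 7.86% higher.

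Insig1, which encodes the sterol sensor that retains these factors in the endoplasmic reticulum, had 188, 196 and 160 CPM in the model and 83.5, 60.5 and 118 CPM with kaempferol. The groups did not overlap (log2 fold change -1.06 ± 0.31, adjusted p = 0.2 by edgeR, 0.0146 by DESeq2). Lss, lanosterol synthase, had 27.7, 41.8 and 22.5 CPM against 15.3, 15.2 and 18.8 CPM with kaempferol (log2 fold change -0.90 ± 0.23, adjusted p = 0.143 by edgeR, 0.0141 by DESeq2). Both were chosen after their values were seen. Sqle, squalene epoxidase, was at 1.96, 8.2 and 0.922 CPM in the model and 1.55, 0.191 and 2.1 CPM with kaempferol. The groups overlapped (adjusted p = 0.556 by edgeR), and both lay far below the 50.6, 27.3 and 65.7 CPM of the control.

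Of 20 fatty acid synthesis genes, 1 fell (Srebf1), 0 rose and 19 did not pass. DESeq2 called 4 lower and 0 higher (against 0.63% and 0.84% of all genes). In 7 (35%, against 8.75%) the kaempferol libraries were below the model. The log2 fold change was negative in 17 of 20, with a median of -0.42, and -0.23 without model library 2. The list summed to 11810, 10700 and 9540 CPM in the model and 10290, 6603 and 6532 CPM with kaempferol, which overlap. Fasn, fatty acid synthase, had 348, 509 and 264 CPM in the model and 158, 84.4 and 150 CPM with kaempferol. Its groups were apart, with a log2 fold change of -1.52 ± 0.38 (adjusted p = 0.153 by edgeR, 0.018 by DESeq2).

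Thrsp, which encodes the lipogenic protein Spot 14, was at 194, 328 and 257 CPM in the model and 63.9, 62.6 and 44.8 CPM with kaempferol (log2 fold change -2.18 ± 0.39, adjusted p = 0.0711 by edgeR, 5.18e-05 by DESeq2). Each kaempferol value lay under the lowest model value, and also under the control values of 270, 103 and 180 CPM. Acsl3, an acyl-CoA synthetase, was at 29.8, 32.2 and 24.8 CPM in the model and 16.1, 11.7 and 15.6 CPM with kaempferol, without overlap (log2 fold change -1.0004 ± 0.20, adjusted p = 0.0661 by edgeR). Acaca, acetyl-CoA carboxylase, had 75.2, 115 and 68.8 CPM against 75.6, 58.7 and 61 CPM with kaempferol, with overlap. Scd1, stearoyl-CoA desaturase, had 7070, 5767 and 5409 CPM against 6471, 3135 and 3042 CPM with kaempferol, also with overlap (adjusted p = 0.636 by edgeR). Kaempferol library 3 was the one within the model range in both of these genes.

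**Figure D3:**
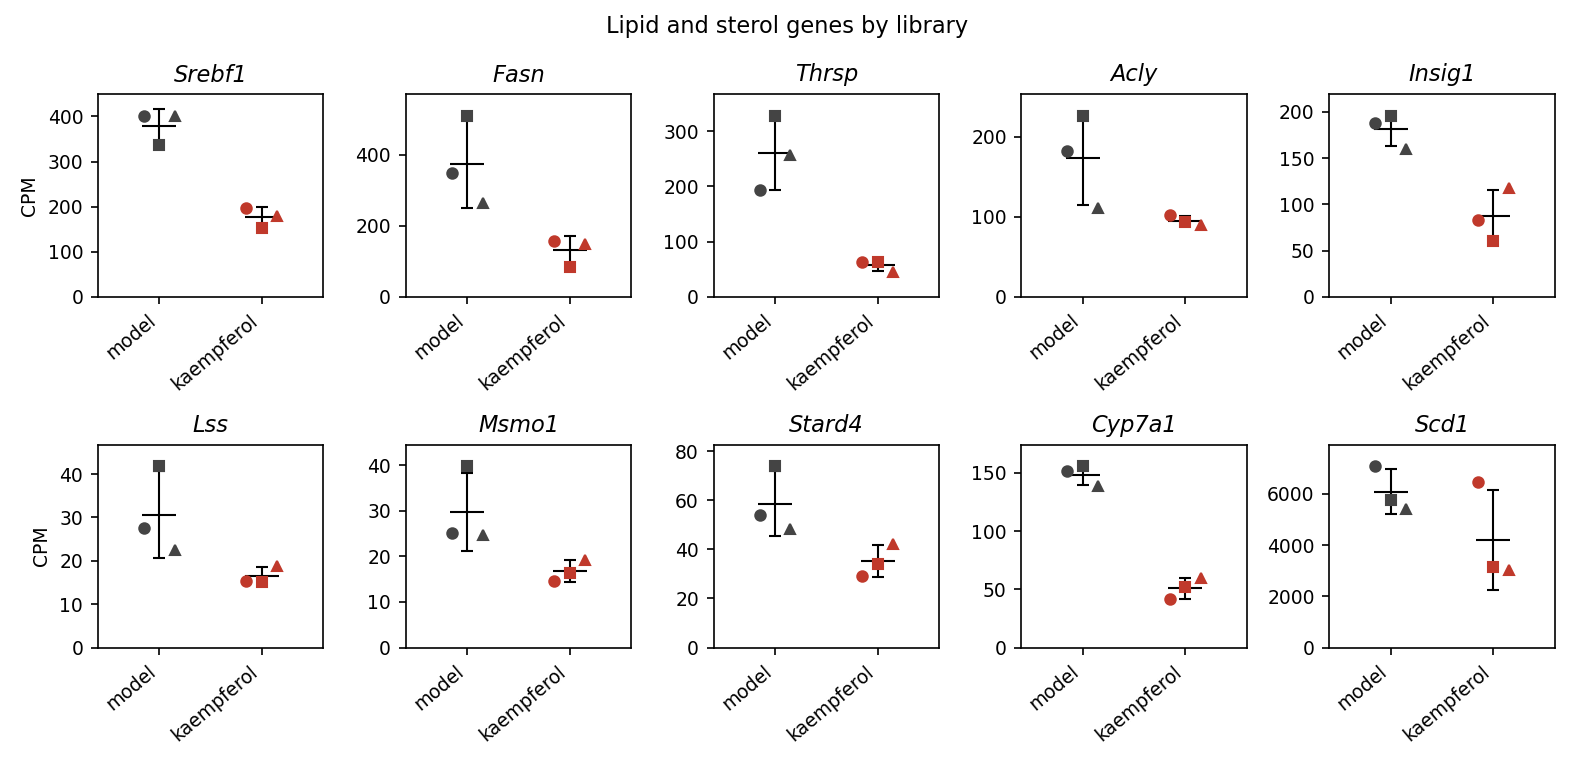
CPM (y axes, from 0) of 10 lipid and sterol genes in the model and kaempferol libraries (x axis), with symbols as above and mean ± SD (n = 3). Kaempferol values lie below the model in all panels but Scd1, where kaempferol library 3 lies within the model range.

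Fatty acid oxidation genes and targets of PPARα, the nuclear receptor that senses fatty acids, gave 0 passing genes of 34 by edgeR. At an unadjusted p under 0.05 there were 6 higher and 2 lower (against 7.11% and 4.54% of all genes). DESeq2 called 2 higher and 1 lower (against 0.84% and 0.63%). In 10 (29.4%, against 10.2%) kaempferol libraries were above the model and in 3 (8.82%, against 8.75%) below, with a list median of 0.09, which was 0.03 without kaempferol library 5 and 0.15 without kaempferol library 8. Cpt1a, which admits fatty acids to mitochondria, had 252, 235 and 238 CPM in the model and 365, 305 and 285 CPM with kaempferol, without overlap (log2 fold change 0.40 ± 0.12, adjusted p = 0.179 by edgeR). Ppara itself lay lower, at 250, 257 and 272 CPM against 218, 193 and 176 CPM with kaempferol (log2 fold change -0.41 ± 0.12, adjusted p = 0.162 by edgeR, 0.0442 by DESeq2). Cyp4a14, a fatty acid hydroxylase with near-identical neighbours, had 5.14, 8.03 and 2.37 CPM in the model and 82.3, 74.7 and 21.7 CPM with kaempferol (adjusted p = 0.305 by edgeR). It was chosen after its values were seen, and its count is uncertain. The groups overlapped for Fgf21, a hepatokine, Pparg, a lipid-storing nuclear receptor, and Cd36, a fatty acid transporter, with adjusted p-values of 0.573, 0.886 and 0.852 by edgeR.

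Bile acid synthesis had 17 genes tested and sterol efflux and esterification 14, and 0 passed in either list by edgeR or DESeq2. At an unadjusted p under 0.05 there were 1 higher and 3 lower in the first and 5 higher and 0 lower in the other. Over all genes 7.11% were higher and 4.54% lower. The median of bile acid synthesis was -0.09, with -0.03 without model library 1, -0.05 without kaempferol library 3, -0.04 without kaempferol library 8 and -0.14 without kaempferol library 5. That of sterol efflux and esterification was 0.18, with 0.09 without model library 2 and 0.12 without kaempferol library 5. Cyp7a1, the rate-limiting enzyme of bile acid synthesis, had 152, 156 and 139 CPM in the model and 41.7, 51.8 and 59.7 CPM with kaempferol. These groups were far apart, with a log2 fold change of -1.54 ± 0.63 that did not pass (adjusted p = 0.366 by edgeR). Fitted on the 6 libraries alone, the same fold change had a standard error of 0.13 and passed (adjusted p = 0.00359 by edgeR). It was 1 of 21 genes that passed in that fit, with Cry1, Cry2, Per3, Thrsp, Acsl3, Ifngr2 and C77080 among them. The main fit takes the spread over all 15 libraries, and control values of Cyp7a1 were 140, 27 and 24.9 CPM.

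Cyp8b1, Cyp27a1 and Cyp7b1, the other oxidising enzymes of the pathway in the fixed set, overlapped between the groups, with adjusted p-values of 0.819, 0.958 and 0.935 by edgeR. Abcg5 and Abcg8, which together form a sterol exporter, overlapped too, at 108, 54.7 and 133 CPM against 108, 115 and 103 CPM for Abcg5. Abca1, another sterol exporter, was at 164, 187 and 167 CPM in the model and 163, 144 and 144 CPM with kaempferol, just below the model range (adjusted p = 0.542 by edgeR). Nr1h3, which encodes the sterol sensor LXRα, had a log2 difference of -0.02 with a 95% interval of -0.24 to 0.21. Nr0b2, a repressor of Cyp7a1, and Cyp1a1, the reporter of the aryl hydrocarbon receptor, overlapped as well (adjusted p = 0.932 and 0.766 by edgeR).

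Macrophage genes were higher in the kaempferol libraries, though none of them passed by edgeR. Of 27 tested, 0 passed by edgeR, with a smallest adjusted p of 0.0807. At an unadjusted p under 0.05, 20 were higher and 0 lower (against 7.11% and 4.54% of all genes). DESeq2 called 7 higher and 0 lower (against 0.84% and 0.63%). In 18 (66.7%, against 10.2% of all genes) each kaempferol library was above each model library, and 26 of 27 had a positive log2 fold change, with a median of 0.71. Without kaempferol library 8, 18 were again above the model, where 15.7% of all genes were, and the median was 0.52. The 28 listed markers summed to 493.2, 414.2 and 574.1 CPM in the model and 693.1, 672.1 and 1326 CPM with kaempferol, and to 253.5 to 323.5 CPM in the control. Members named here were chosen after their values were seen.

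Msr1, a scavenger receptor, had 8.08, 9.36 and 9.68 CPM in the model and 13.7, 13.5 and 16.6 CPM with kaempferol, without overlap (log2 fold change 0.69 ± 0.15, adjusted p = 0.0807 by edgeR, 0.0137 by DESeq2). Clec4f, a Kupffer cell lectin, had 84.5, 70.5 and 80.1 CPM against 104, 119 and 121 CPM with kaempferol (log2 fold change 0.55 ± 0.17, adjusted p = 0.207 by edgeR). C1qc, a complement chain made by macrophages, had 35.6, 26.8 and 37 CPM against 48.6, 47.6 and 81.2 CPM with kaempferol (adjusted p = 0.145 by edgeR). In these genes all 3 kaempferol libraries were above the model, and library 8 was the highest.

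Library 8 was far above the others in some Kupffer cell genes. Marco, a scavenger receptor of tissue macrophages, had 6, 3.55 and 30.4 CPM in the model and 12.3, 16.9 and 198 CPM with kaempferol, which overlap. Adgre1, which encodes F4/80, was at 10.8, 8.9 and 10.7 CPM against 14.8, 13.9 and 63.6 CPM with kaempferol. Cd5l, secreted by macrophages, was at 69.9, 46.1 and 75.9 CPM against 93.5, 98.9 and 295 CPM with kaempferol. The 2 other kaempferol libraries were above the model in Adgre1 and Cd5l by less than library 8.

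B cell markers leaned the same way, with 8 tested, 0 passing by edgeR (smallest adjusted p 0.0906), 6 higher at an unadjusted p under 0.05 (7.11% of all genes) and 2 called higher by DESeq2 (0.84%). In 3 (37.5%, against 10.2%) each kaempferol library was above each model library. All 8 log2 fold changes were positive, with a median of 1.15, and 0.68 without kaempferol library 8. The 9 listed markers in the table summed to 9.795, 8.953 and 11.26 CPM in the model and 13.39, 19.67 and 37.39 CPM with kaempferol. Cd22, a B cell lectin, had 1.29, 1.4 and 2.17 CPM against 2.93, 3.37 and 6.36 CPM with kaempferol, without overlap. T and natural killer cell markers summed to 31.04, 17.27 and 27.46 CPM against 36.62, 26.03 and 31.6 CPM with kaempferol, which overlap, and neutrophil markers to 6.974, 3.316 and 6.584 CPM against 10.35, 6.428 and 15.38 CPM, also with overlap.

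Acute phase genes had 1 of 29 that rose (Saa3), 0 that fell and 28 that did not pass. DESeq2 called 6 higher and 0 lower (against 0.84% and 0.63% of all genes). Of the 29, 26 had a positive log2 fold change, with a median of 0.38. The median was 0.60 without kaempferol library 8 and 0.18 without kaempferol library 3. In 7 (24.1%, against 10.2%) each kaempferol library was above the model, and in 19 (65.5%, against 15.7% of all genes) when library 8 was left out. Library 8, which had the highest macrophage sum, was the lowest of the 3 in Saa1, Saa2, Saa3, Lbp and Fga.

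Saa1 and Saa2 encode the main serum amyloids of the liver. Saa2 had 22.1, 8.9 and 11.5 CPM in the model and 99.2, 104 and 15.2 CPM with kaempferol. Saa1 had 94.8, 27.7 and 69 CPM against 210, 200 and 32.9 CPM with kaempferol. In both genes kaempferol libraries 3 and 5 were above the model and library 8 lay within its range, and neither passed (adjusted p = 0.361 and 0.652 by edgeR). Lbp, the lipopolysaccharide binding protein, was higher in all 3, at 81.8, 63.2 and 65 CPM against 131, 125 and 98.7 CPM with kaempferol (log2 fold change 0.75 ± 0.16, adjusted p = 0.073 by edgeR, 0.00442 by DESeq2). Fga, a fibrinogen chain, had 4096, 4424 and 3688 CPM in the model and 6818, 5615 and 4699 CPM with kaempferol, without overlap (adjusted p = 0.151 by edgeR). These were chosen after their values were seen, and Saa1, Saa2 and Saa3 are similar enough in sequence that shared reads may blur their counts.

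**Figure D4:**
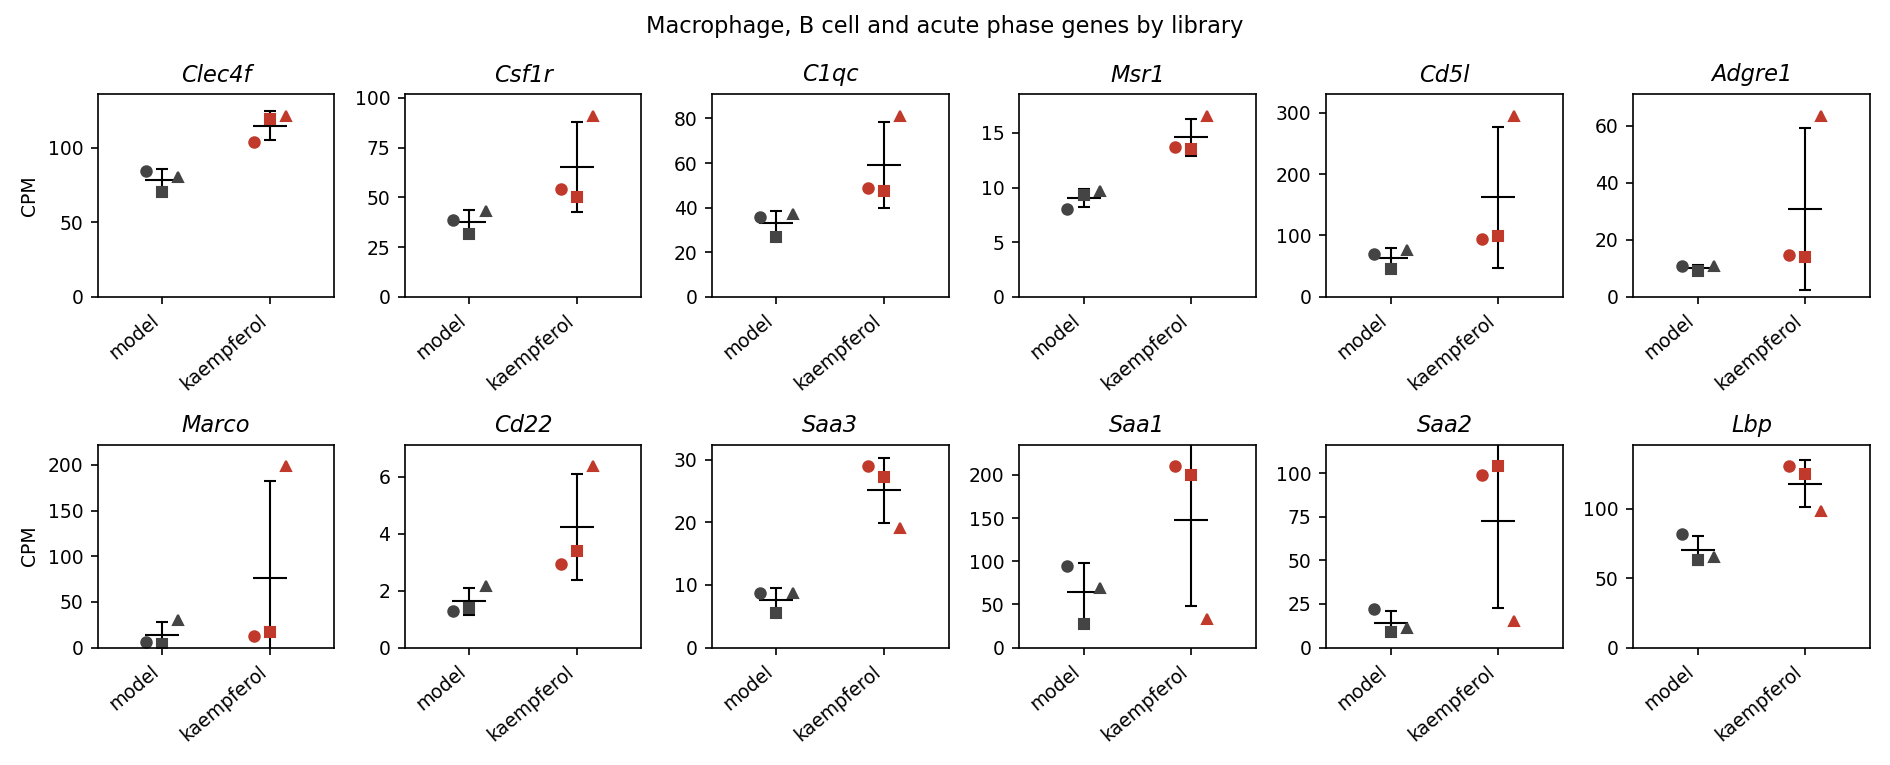
CPM (y axes, from 0) of 8 macrophage or B cell genes and 4 acute phase genes in the model and kaempferol libraries (x axis), with symbols as above and mean ± SD (n = 3). Among the 3 kaempferol libraries, library 8 (triangle) is the highest in Marco, Adgre1 and Cd5l and the lowest in Saa1, Saa2 and Lbp.

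Interferon stimulated genes gave 0 passing genes of 33 by edgeR. At an unadjusted p under 0.05, 14 were higher and 0 lower (against 7.11% and 4.54% of all genes). DESeq2 called 4 higher and 0 lower (against 0.84% and 0.63%). In 11 (33.3%, against 10.2%) each kaempferol library was above the model. Of the 33, 32 had a positive log2 fold change, with a median of 0.31, which was 0.49 without model library 1 and 0.19 without model library 5. Ifit3, an antiviral gene chosen after its values were seen, had 8.14, 8.14 and 9.95 CPM in the model and 15.2, 14.3 and 15 CPM with kaempferol, without overlap (log2 fold change 0.76 ± 0.16, adjusted p = 0.0807 by edgeR).

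Ifngr2, a chain of the interferon gamma receptor, had 11.4, 10.9 and 12.6 CPM against 18.1, 19.4 and 19.5 CPM with kaempferol (log2 fold change 0.71 ± 0.13, adjusted p = 0.0634 by edgeR). The 3 kaempferol libraries lay close together and above every model library. Plac8, expressed in myeloid and lymphoid cells, had 4.41, 3.95 and 4.28 CPM against 8.52, 7 and 8.86 CPM with kaempferol (log2 fold change 0.95 ± 0.17, adjusted p = 0.0634 by edgeR). Macrophage genes were higher in the same libraries, and their part in these differences was not tested.

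Stress response genes were mixed. Of 25 genes of endoplasmic reticulum stress and the integrated stress response, 0 passed by edgeR. At an unadjusted p under 0.05, 2 were higher and 7 lower (against 7.11% and 4.54% of all genes). DESeq2 called 3 lower (against 0.63% of all genes). The log2 fold change was positive in 10 and negative in 15, with a median of -0.41. In 10 (40%, against 8.75%) each kaempferol library was below the model and in 2 (8%, against 10.2%) above. Calr, calreticulin, had 1227, 1205 and 1316 CPM in the model and 849, 961 and 854 CPM with kaempferol, without overlap (log2 fold change -0.49 ± 0.12, adjusted p = 0.129 by edgeR, 0.0114 by DESeq2). Hspa5, the chaperone BiP, had 1145, 1303 and 917 CPM against 608, 507 and 801 CPM with kaempferol (adjusted p = 0.379 by edgeR). Of 17 heat shock genes, 14 had a negative log2 fold change and 0 passed by edgeR or DESeq2. At an unadjusted p under 0.05, 2 were lower (against 4.54% of all genes). In this list 9 (52.9%, against 8.75% of all genes) were below the model in each kaempferol library, and the median was -0.34. Atf4, which drives the amino acid branch of this response, was at 77.4, 84.9 and 73.6 CPM against 83.5, 82 and 71.8 CPM with kaempferol, with overlap. Calr, Hspa5 and Atf4 were chosen after their values were seen.

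**Figure D5:**
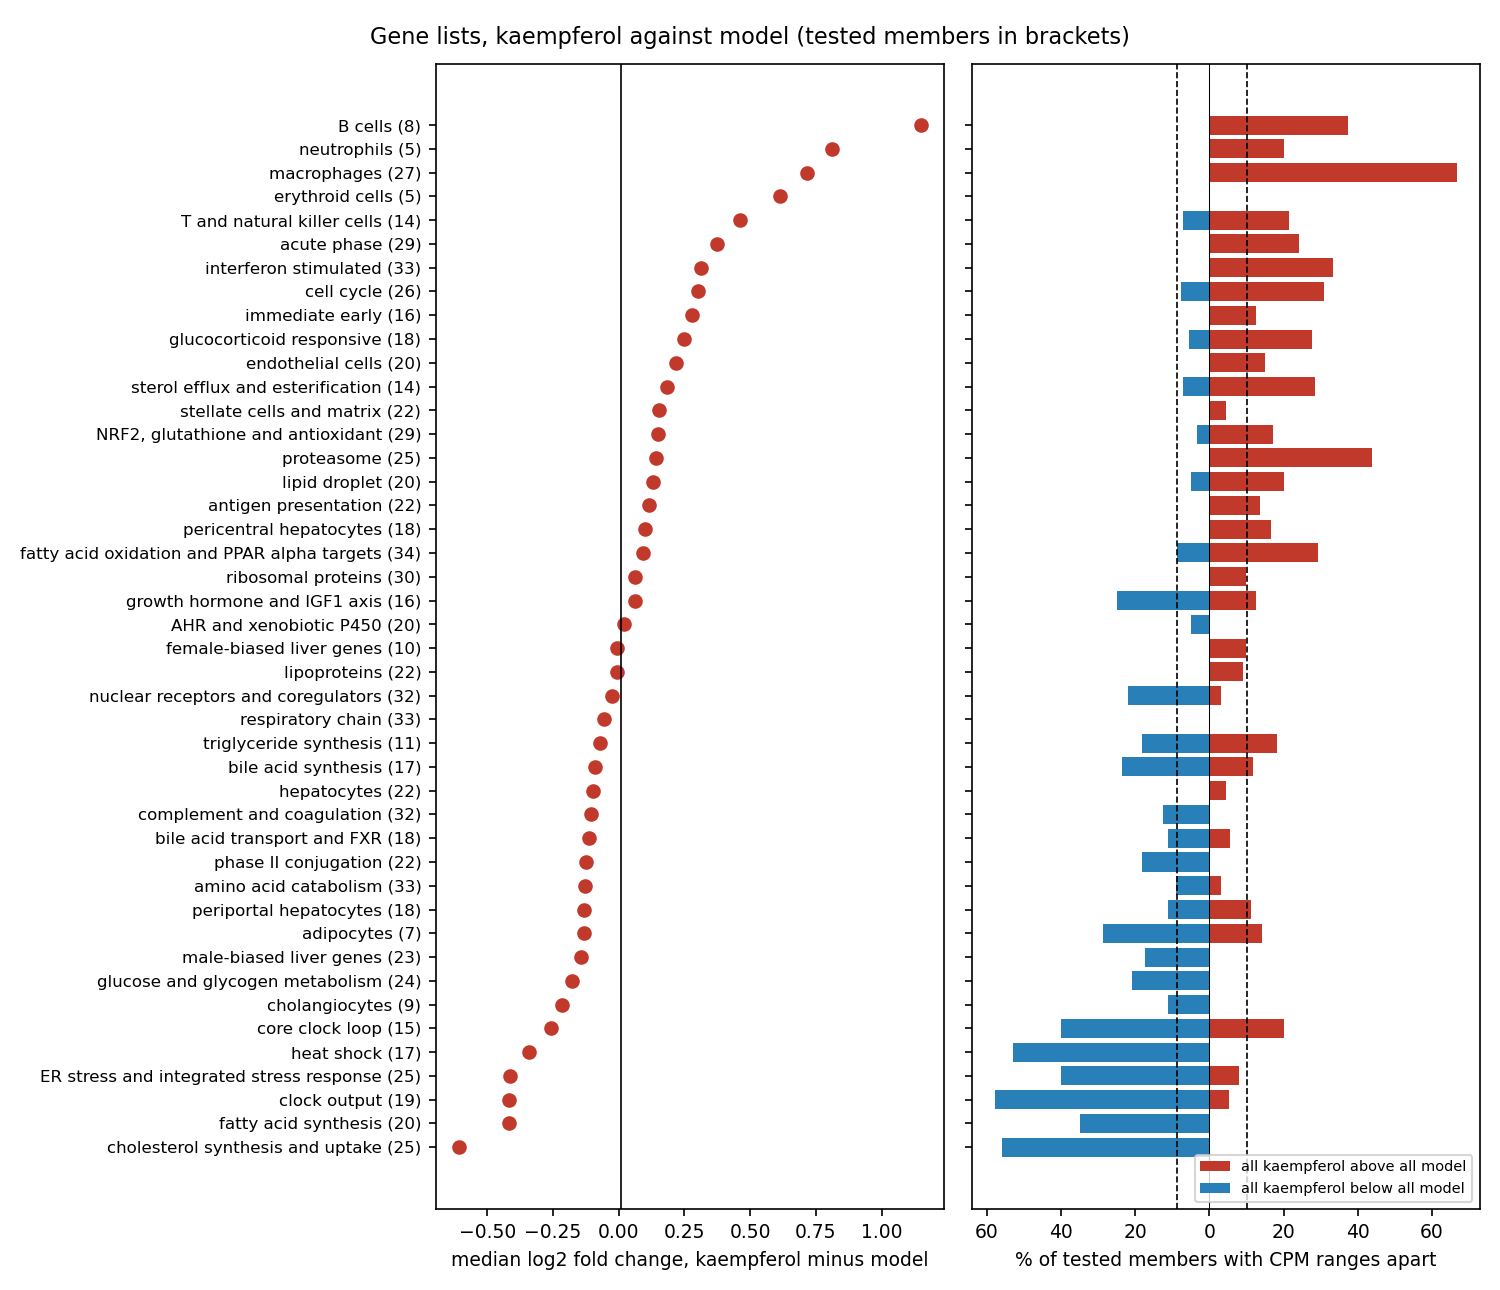
Left, median log2 fold change of kaempferol minus model for each gene list with at least 5 tested members (number in brackets), with the line at the median of all genes, 0.01. Right, share of members whose 3 kaempferol libraries all lie above (red) or below (blue) all 3 model libraries, with dashed lines at the shares over all genes, 10.2% and 8.75%. Macrophages reach 66.7% above, and clock output genes reach 57.9% and cholesterol synthesis genes 56% below.

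The genes with the smallest unadjusted p-values and at least 5 CPM in the higher group, 10 in each direction, include others outside these lists. Higher with kaempferol were Pik3ap1, an adaptor of phosphoinositide 3-kinase, Slc25a22, a mitochondrial glutamate carrier, St6gal1, a sialyltransferase, Lgmn, a lysosomal protease, Fbxo21, a ubiquitin ligase subunit, and the gene C77080. Their log2 fold changes were 0.54 to 0.78, and each had an adjusted p of 0.0634 by edgeR. Slc25a22 stood at 150, 111 and 102 CPM in the model and 189, 209 and 189 CPM with kaempferol, without overlap. Its control values were 196, 206 and 184 CPM, a log2 difference of 0.00 from kaempferol.

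Lower were Inhbc, an activin chain made by hepatocytes, Gas1, a growth arrest protein, Ddo, D-aspartate oxidase, Tpst1, a protein sulfotransferase, and Tigit, an immune receptor of T and natural killer cells. Inhbc had 123, 119 and 118 CPM in the model and 76.9, 73.1 and 89.6 CPM with kaempferol, without overlap (log2 fold change -0.58 ± 0.11, adjusted p = 0.0634 by edgeR). Gas1 was at 23.3, 20.5 and 17.8 CPM against 8.52, 12.7 and 12.7 CPM with kaempferol. Adjusted p-values of the 5 ran from 0.0634 to 0.073 by edgeR, and the groups were apart in each.

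Kaempferol was also set against the other flavonols, at doses that differ, so that compound and dose cannot be told apart. Nor is the hour of collection given for these groups, and its part in the differences was not tested. These comparisons share the kaempferol libraries with the one above. Against quercetin, 612 genes (4.83%) passed, 302 higher (2.39%) and 310 lower (2.45%) with kaempferol. The count was 285 without kaempferol library 3, 391 without kaempferol library 8, 359 without quercetin library 2 and 335 without quercetin library 5. Of the 15 core clock genes, 4 were higher and 6 lower. Npas2 was at 9.41, 11.9 and 9.65 CPM with kaempferol and at 0.222, 0.0555 and 0.185 CPM with quercetin (log2 difference 6.01, adjusted p = 0.00543 by edgeR). Arntl was at 28.8, 28.6 and 23.6 CPM against 3.56, 1.33 and 3.08 CPM with quercetin (log2 difference 3.35, adjusted p = 2.22e-05 by edgeR).

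Dbp was at 1.49, 1.27 and 1.99 CPM with kaempferol and 141, 163 and 126 CPM with quercetin (log2 difference -6.48, adjusted p = 4.82e-05 by edgeR). Ciart, a clock repressor, and Rgs16, a regulator of G protein signalling, were lower with kaempferol than with quercetin too (log2 differences -5.12 and -4.51, adjusted p = 0.000778 and 0.0283 by edgeR). Ciart was at 0.277, 0.446 and 0.511 CPM with kaempferol, all under 1 CPM, and at 11.7, 24.6 and 7.14 CPM with quercetin. Rgs16 was at 1.44, 1.21 and 2.1 CPM against 12.1, 83 and 14 CPM, highest in quercetin library 5. Moxd1, a monooxygenase-like gene, was at 3.1, 7.26 and 4.66 CPM with kaempferol and at most 0.369 CPM with quercetin, where library 2 was listed at 0 (log2 difference 4.64, adjusted p = 0.0238 by edgeR). It had 27.7, 21.5 and 60.3 CPM in the model.

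Lipid genes were among those that differed from quercetin. Srebf1 was lower with kaempferol (log2 difference -1.63 ± 0.17, adjusted p = 5.57e-05 by edgeR), as were Fasn (-1.90, adjusted p = 0.0175 by edgeR) and Thrsp (-2.42, adjusted p = 0.00591 by edgeR). Fasn had 158, 84.4 and 150 CPM with kaempferol and 517, 566 and 382 CPM with quercetin. In the cholesterol list, 10 of 25 were lower with kaempferol than with quercetin and 0 higher, where 2.45% of all genes were lower and 2.39% higher. Cyp8b1, which sets the cholic acid share of bile acids, was higher with kaempferol, at 398, 533 and 379 CPM against 119, 253 and 168 CPM (log2 difference 1.28, adjusted p = 0.00556 by edgeR). Ifngr2 was higher with kaempferol as well (log2 difference 0.55, adjusted p = 0.0218 by edgeR).

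Against myricetin, 0 of 12658 genes (0%) passed by edgeR, with a smallest adjusted p of 0.0713. At an unadjusted p under 0.05 by edgeR there were 925 (7.31%). DESeq2 called 35 of the 11891 genes to which it gave an adjusted p. Without kaempferol library 8 the edgeR count was 13, and without myricetin library 5 it was 2. Saa3 was at 28.9, 27.2 and 19.2 CPM with kaempferol and 7.84, 6.45 and 7.87 CPM with myricetin, without overlap (log2 difference 1.76, adjusted p = 0.0713 by edgeR). Dbp and Nr1d1 had the same adjusted p, with log2 differences of -3.40 and -2.38. Thrsp was at 63.9, 62.6 and 44.8 CPM with kaempferol and 56.3, 36.8 and 91.8 CPM with myricetin, with overlap.

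Against the standard-feed control, which differs in diet as well as in gavage, 1697 genes passed, 995 higher and 702 lower with kaempferol. The count was 766 without control library 2, 809 without control library 3 and 1055 without kaempferol library 3. Macrophage markers were higher in 21 of 27 and lower in 0, where 7.86% of all genes were higher and 5.55% lower. Clec4f was at 41.3, 58.3 and 32.6 CPM in the control and 104, 119 and 121 CPM with kaempferol (log2 difference 1.38, adjusted p = 0.000602 by edgeR). Interferon stimulated genes were higher in 23 of 33 (against 7.86% of all genes) and lower in 1.

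Sterol exporters were higher with kaempferol than in the control. Abcg8 was at 48.5, 46.8 and 45.4 CPM in the control and 140, 136 and 121 CPM with kaempferol (log2 difference 1.49, adjusted p = 0.00813 by edgeR). Abca1 was at 107, 110 and 102 CPM in the control and 163, 144 and 144 CPM with kaempferol (log2 difference 0.50, adjusted p = 0.00877 by edgeR). Fasn was lower than in the control (log2 difference -1.996, adjusted p = 0.00763 by edgeR), and so was Sqle (-5.18, adjusted p = 0.00284 by edgeR). Where 5.55% of all genes were lower with kaempferol than in the control, 12 of 25 endoplasmic reticulum stress genes and 12 of 17 heat shock genes were. Higher were 1 of the first list and 0 of the other.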

How the data were processed

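Liver RNA of 15 libraries in 5 groups of 3 was sequenced. The submitters' processing notes list GRCm38.p6 as the build and, without saying what each did, RSEM 1.3.1, HISAT2 2.1.0, DESeq2 1.4.5 and Bowtie2 2.3.4.3 as tools. The authors deposited an expected count per gene and library for 16809 genes, per the file headers a read count, of which 5.37% were not whole (tolerance 1e-06). Also deposited were the authors' log2 fold change and DESeq2 q-value for model against kaempferol, used only for a count of genes. Among genes with a q-value under 0.05 that were also in the fit, the sign of that log2 column was that of kaempferol minus model in 100%. The 30 columns of FPKM and TPM and 15 of group averages were not used. Counting by strand is not given in the sources used here, so overlapping genes may share reads.

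Counts were rounded, filtered with filterByExpr (12658 genes left) and scaled by TMM. The test was edgeR's (4.0.16, under R 4.3.3) robust quasi-likelihood F test on 15 libraries with 1 mean per group, with 10 residual degrees of freedom and 2-sided tests. Adjusted p-values cover all genes tested. The standard error is the log2 fold change divided by the root of the F statistic, so it and the 95% intervals are approximate. DESeq2 1.42.0 was the other tool. CPM use TMM-scaled totals. The main fit was also run on simulated counts in which only the kaempferol group differed. Other groups differ too in these data, so that run does not vouch for the calls given here. Libraries of a group differed beyond sampling noise (chi-square per gene 15.9 to 46.1), and totals of 16253513 to 17419026 counts leave genes under 1 CPM imprecise.

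Named genes are 20 fixed lipid and xenobiotic genes, genes that passed with ranges apart and at least 5 CPM, and, since few passed, the 10 smallest p-values in each direction, plus the 3 most extreme each way against quercetin. Lists were described by counts and medians, without a set test. The members and lists were chosen with earlier results of these data known. Some genes are not reported here.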

Additional observations from a re-analysis of the deposited data

How the results depend on the processing

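The count of genes that passed in kaempferol against model (5) was 189 by DESeq2, 18 with no filter on low counts, 21 with only the 6 libraries and 0 to 39 when a library was left out, 6 with RLE size factors. The 0 came without model library 2, without model library 5 and without kaempferol library 3, and the 39 without kaempferol library 5. Without kaempferol library 8 it was 18 and without model library 1 it was 1. By DESeq2 the count was 56 to 266 when a library was left out. Against quercetin (612) it was 958 by DESeq2 and 285 to 706 when a library was left out, lowest without kaempferol library 3, against myricetin (0) 35 by DESeq2 and 0 to 13, highest without kaempferol library 8, and against control (1697) 766 to 1941, lowest without control library 2.

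The labels do not say whether the titles' numbers pair the libraries. In 0 of 14 same-number pairs did deviations from the group means correlate over 0.1 (highest 0.098). Kaempferol and model share only number 5, so a pairing of these groups could not be tested. With the number as a replicate block, which leaves 5 residual degrees of freedom, 1 gene passed against model (Moxd1, and none of the 5, with adjusted p-values of 0.109 to 0.3 by edgeR), 185 against quercetin, 1 against myricetin and 298 against control. Under this replicate block the log2 fold changes of Nr1h3 (0.011), Nr0b2 (-0.048), Arntl (0.10) and Ciart (0.037) changed sign, all far from the threshold.

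These list medians kept their sign when each library was left out, with ranges of -0.84 to -0.39 for cholesterol synthesis, -0.58 to -0.23 for fatty acid synthesis, -0.36 to -0.077 for the core clock, -0.54 to -0.36 for clock output, -0.45 to -0.35 for endoplasmic reticulum stress, -0.45 to -0.26 for heat shock and 0.19 to 0.49 for interferon stimulated genes. These leave-outs of lists and of DESeq2 were added after seeing the data. Genes with log2 fold changes near 0 changed sign when 1 library was left out, over ranges of -0.13 to 0.040 (Cyp27a1), -0.29 to 0.0011 (Cyp7b1), -0.17 to 0.42 (Abcg5), -0.072 to 0.025 (Nr1h3), -0.24 to 0.43 (Nr0b2), -0.31 to 0.055 (Pparg), -0.14 to 0.0040 (Arntl) and -0.076 to 0.48 (Rgs16). The cause of these shifts was not tested.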

Other observations

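Proteasome subunits had small differences in 1 direction. All 25 tested had a log2 fold change above 0 in kaempferol against model, with a median of 0.14. Of these, 0 passed by edgeR or DESeq2, and 2 were higher at an unadjusted p under 0.05 (against 7.11% of all genes). The median was 0.09 without kaempferol library 5. In 11 (44%, against 10.2% of all genes) each kaempferol library was above each model library. Psmd4, a ubiquitin receptor of the particle, was at 115, 112 and 119 CPM in the model and 145, 142 and 134 CPM with kaempferol. The respiratory chain list gave 0 of 33 genes with ranges apart in either direction and a median of -0.05, which ran from -0.19 to 0.03 when 1 library was left out.

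Mt1 and Mt2, the metallothioneins that bind zinc and copper, differed most in kaempferol library 3. Mt1 had 1.9, 1.28 and 0.856 CPM in the model and 23.9, 6.49 and 2.61 CPM with kaempferol (adjusted p = 0.265 by edgeR, 0.0341 by DESeq2). Mt2 had 0.551, 0.116 and 0.198 CPM against 11.1, 3.18 and 0.511 CPM, with overlap. Moxd1 had 27.7, 21.5 and 60.3 CPM in the model and 3.1, 7.26 and 4.66 CPM with kaempferol (log2 fold change -2.87 ± 0.59, adjusted p = 0.0975 by edgeR, 0.0147 by DESeq2), while the control had 1.97, 1.16 and 1.86 CPM. Cdkn1a, the cell cycle inhibitor p21, was at 8.08, 9.07 and 11.3 CPM in the model and 15.8, 15 and 20.9 CPM with kaempferol (adjusted p = 0.216 by edgeR).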
